A study of Homo sapiens with 10 samples.

Results

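The extended major histocompatibility complex (MHC) was examined in RPMI-8402 cells, a long-established line grown from a human T-cell leukaemia, as the 5 Mb of hg19 chromosome 6 that begin at position 28500001. Members were all regions lying wholly inside that window in any of 6 peak lists, and they numbered 645 of the 121294 regions listed on chromosomes 1 to 22 and X. There were 4 MYCN peaks of 895, 88 MYC regions of 9498 in set C, 108 MYC peaks of 18018 in set D, 122 H3K4me3 regions of 13852, 164 H3K27ac regions of 39528 and 159 H3K4me1 regions of 39503. The window was divided by position into an extended class I part, which begins the window, then class I from 29600001, class III from 31500001, class II from 32350001 and an extended class II part from 33200001 to the end of the window. A region was counted in the part that held its centre.

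The peak lists come from CUT&RUN, in which an antibody directs a nuclease to its target in cells and the DNA cut free beside the target is sequenced. All libraries were made from cultured RPMI-8402 cells, for which the labels name no drug or genetic change, and differ in the antibody and in the set, labelled A to D, in which they were made. MYCN belongs to set A, H3K4me3 to set B, MYC, H3K27ac and H3K4me1 to set C, and a further MYC library to set D. Each set also has a control IgG library, and these 4 libraries were not used here. Every target except MYC therefore had 1 list and no replicate. The 2 MYC lists were made by different peak callers, the headers of both name 1 common signal track, and they cannot be taken as independent. The lists hold positions and no read counts, so depth is unknown and no height of a peak can be given. The intervals below are exact 95% intervals for counting error over listed regions, which are not replicates. No test between the window and the rest of the genome was made, and each share is set beside the share over the whole list.

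The MHC is among the most gene-dense stretches of the human genome. The class I part is known for genes of peptide presentation to CD8+ T cells, a function of most nucleated cells. The class II part holds the HLA-DR, HLA-DQ and HLA-DP genes, which present peptides to CD4+ T cells and are expressed mainly by B cells, dendritic cells and other antigen-presenting cells. Class III holds complement, heat shock and tumour necrosis factor genes. BRD2, a bromodomain protein of the BET family that reads acetylated histones, is encoded in the class II part although it is not itself a gene of antigen presentation. H3K4me3 marks active promoters, H3K27ac active promoters and enhancers, and H3K4me1 mostly enhancers. MYC and MYCN bind DNA together with MAX, often at E-box sequences in promoters. Regions are named by their positions because gene models on hg19 were not used here. BRD2 is placed by the location stated for it when the window was defined, and no other gene is assigned to a region.

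BRD2 held the broadest H3K4me3 region of the window and the only MYCN peak of class II. One H3K4me3 region ran from 32934699 to 32942884 on chromosome 6, a width of 8186 bp against a median of 1341 bp over the whole list, and only 1 of the 13852 listed regions was wider. A MYC region of set C covered most of it, from 32935060 to 32942012. It was 6953 bp wide, compared with a list median of 1165 bp, and 17 of 9498 regions were wider. In set D the same stretch held 2 separate MYC peaks. The larger ran from 32936198 to 32937893 (1696 bp, with 25 of 18018 peaks wider), and the smaller from 32939368 to 32939842 (475 bp). The H3K4me3 region, the set C MYC region and the larger set D peak were each the widest member of the window in their list. The same held for the H3K27ac region from 32937060 to 32939438, at 2379 bp with 160 of 39528 wider.

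The MYCN peak at BRD2 was narrow, at 151 bp from 32936410 to 32936560. The list median was 222 bp, and 838 of the 895 MYCN peaks were wider. It lay inside the larger MYC peak of set D but 499 bp away from the H3K27ac region, and 2140 bp from the nearest H3K4me1 region, which ran from 32933818 to 32934269. The centre of the larger set D peak lay 561 bp from the centre of the MYCN peak. The stretch of highest MYC signal named in the set C list lay 3057 bp from the centre of the MYCN peak, outside the larger set D peak and at the smaller one. MYC of set C and H3K4me3 thus formed single broad blocks here, and the other lists had shorter regions within or beside them.

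**Figure D1:**
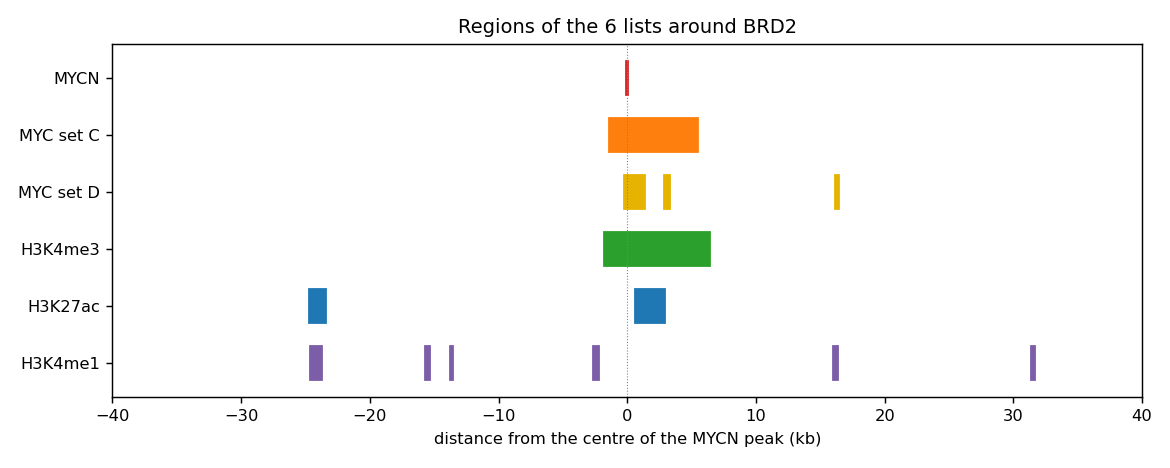
Regions of the 6 lists within 40 kb of the MYCN peak at BRD2, one row per list, with distance from the centre of that peak in kb on the horizontal axis. The H3K4me3 region of 8186 bp and the set C MYC region of 6953 bp reach from just left of the MYCN peak to its right, while H3K4me1 lies outside them.

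RefSeq lists 4 start positions for BRD2, and the 250 bases before the outermost one are shown because BRD2 is the one named gene with a MYCN peak in the window. The sequence is from GRCh38.p14, plus strand, chr6:32968344-32968593, and the matching hg19 bases were not determined.
BRD2: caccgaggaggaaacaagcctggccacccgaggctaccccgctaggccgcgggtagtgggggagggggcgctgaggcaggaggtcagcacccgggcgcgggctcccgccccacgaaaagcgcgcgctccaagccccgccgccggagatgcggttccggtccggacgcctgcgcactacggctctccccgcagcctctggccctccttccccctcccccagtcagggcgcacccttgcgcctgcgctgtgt
No base is in capitals because neither motif searched was found in it. The motifs were the E-box CACGTG and its general form CANNTG, which includes the first, both read on both strands. CACGTG was in 0 of the 4 BRD2 entries, compared with 6.34% of all 35116 RefSeq promoter entries of this length. CANNTG was in 1 of the 4, as CAGCTG 44 bases before the innermost start, compared with 61.8% of all entries. The 4 entries belong to 1 gene and were not placed against the MYCN peak. They do not show whether that peak holds an E-box. G and C made up 74% of the sequence shown. The 4 starts span 4490 bases on GRCh38.p14, and where they lie against the hg19 H3K4me3 region was not determined. In the RefSeq order of protein-coding genes BRD2 stands between HLA-DMA and HLA-DOA.

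The other 3 MYCN peaks of the window also lay in both MYC lists. Those of class I were wider than the list median of 222 bp, and that of class III was narrower. In class I there were 2, at 30312874 to 30313113 (240 bp) and at 30539050 to 30539413 (364 bp). The third was at 31509562 to 31509723 (162 bp), just inside the lower limit of class III, and moving that limit up by 0.1 Mb left class III with 0. No MYCN peak was listed over the first 1812.87 kb of the window, up to position 30312873. All 4 overlapped MYC in both sets, where the share over the whole MYCN list was 70.8%, and 98.5% of that list overlapped MYC in either set. All 4 also overlapped H3K4me3 (82.2% of the whole list), 3 overlapped H3K27ac (80.6%) and 1 overlapped H3K4me1 (16.8%). With 4 peaks the intervals are too wide to set these counts apart from the whole list: 4 of 4 allows a share down to 39.8%.

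Outside BRD2, MYCN sat close to the centre of the set D MYC peak and to the highest signal of the set C region. At the 3 class I and class III sites the centre of the MYCN peak was 30, 33 and 14 bp from the centre of the set D MYC peak, in order along the chromosome. The stretch of highest signal in the set C region lay 39, 32 and 69 bp away at the same sites, and the centre of that region 44, 134 and 164 bp away. The first class I site was the one with all 5 other lists. There a narrow H3K4me3 region of 1048 bp, an H3K27ac region of 375 bp and an H3K4me1 region of 453 bp all overlapped the MYCN peak. The second class I site had H3K4me3 of 1480 bp and H3K27ac of 622 bp, with the nearest H3K4me1 region 1824 bp away. The class III site had a broader H3K4me3 region of 3056 bp and an H3K27ac region of 1470 bp, and H3K4me1 was 4459 bp away.

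Promoter mark and MYC were dense across the window as a whole. Among the 555 windows of 5 Mb compared, laid in step with this one, the extended MHC ranked 2 for MYC of set C, 3 for H3K4me3 and 9 for MYC of set D by number of regions. It ranked 21 for H3K27ac, 35 for MYCN and 39 for H3K4me1. H3K4me3 had 122 regions against a median of 17 in the other windows, a ratio of 7.18, and MYC had 88 against 11 in set C (a ratio of 8) and 108 against 23 in set D (4.70). The ratios for H3K27ac (164 against 55, 2.98) and H3K4me1 (159 against 50.5, 3.15) were smaller. The window was also set against the 576 windows laid from the first base of each chromosome. There the number of H3K4me3 regions would take rank 6 and that of H3K27ac rank 33. The extended MHC window is not itself one of those windows and overlaps some of them. These ranks describe 1 window with no measure of error, and the number of peaks in a list depends on its caller and threshold.

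By bases covered the window ranked 3 for MYC of set C and for H3K4me3, 5 for MYC of set D, 14 for H3K27ac, 53 for H3K4me1 and 68 for MYCN. H3K4me3 covered 187.7 kb of the window (3.75% of its bases), MYC of set C 133.9 kb (2.68%), H3K27ac 120.3 kb (2.41%), H3K4me1 62.8 kb (1.26%), MYC of set D 58.6 kb (1.17%) and MYCN 0.917 kb. Median widths in the window and over the whole list were 1354.5 and 1165 bp for MYC of set C, 484.5 and 422 bp for set D, and 1420 and 1341 bp for H3K4me3. They were 643 and 551 bp for H3K27ac, 329 and 324 bp for H3K4me1, and 201 and 222 bp for MYCN.

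Class III and the extended class II part were the denser parts for H3K4me3 and MYC, and class II and the extended class I part the sparser ones. H3K4me3 had 44.7 regions per Mb in class III (exact Poisson 95% interval 31.6 to 61.4, 38 regions), 21.6 in class I (15.5 to 29.3, 41 regions) and 10.6 in class II (4.84 to 20.1, 9 regions). The extended class II part had 56.7 per Mb (33 to 90.7, 17 regions), and the extended class I part 15.5 (9.0 to 24.7, 17 regions). The intervals of class III and class I did not overlap for H3K4me3 at these limits, and neither did those of class III and class II. With the limit between class I and class III 0.1 Mb higher, class I had 24 per Mb and class III 41.3. With it 0.1 Mb lower they had 21.1 and 43.2. Intervals at the moved limits are not given, so the separation of class I and class III holds only for the limit used. The class II value rests on where its upper limit is set: it was 6.67 per Mb with that limit 0.1 Mb lower and 18.9 with it 0.1 Mb higher. H3K4me3 regions lay within 0.1 Mb of that limit on both sides.

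MYC followed a similar order. Set C had 28.2 regions per Mb in class III (18.1 to 42.0), 17.4 in class I (12.0 to 24.4) and 8.24 in class II (3.31 to 17.0). Set D had 29.4 per Mb in class III (19.0 to 43.4), 22.1 in class I (15.9 to 29.9) and 11.8 in class II (5.64 to 21.6). Class III and class II had intervals that did not overlap in set C but did overlap in set D, and class III and class I overlapped in both. With the upper limit of class II raised by 0.1 Mb its values were 14.7 for set C and 17.9 for set D.

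H3K27ac and H3K4me1 were also densest in class III among the 3 central parts, with class II the sparsest. H3K27ac had 51.8 regions per Mb in class III (37.6 to 69.5), 38.4 in class I (30.1 to 48.3) and 20 in class II (11.7 to 32.0). H3K4me1 had 44.7 per Mb in class III (31.6 to 61.4), 40.5 in class I (32.0 to 50.7) and 27.1 in class II (17.2 to 40.6). The intervals of class I and class III overlapped for both marks. In the extended class I part H3K4me1 had 11.8 regions per Mb (6.29 to 20.2), near the 10.1 per Mb of the median window elsewhere.

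**Figure D2:**
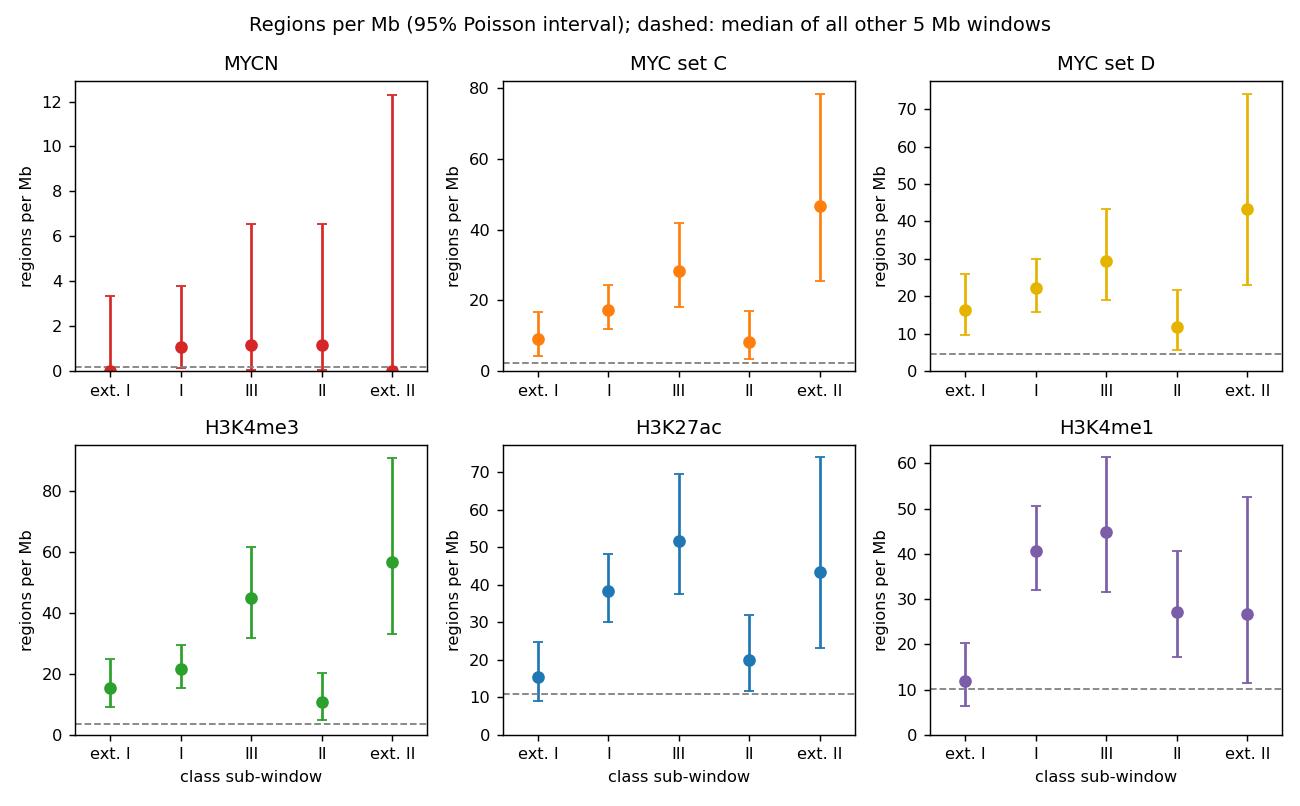
Regions per Mb in the 5 parts of the window, from the lowest to the highest coordinate, with 1 panel per list. Points are counts divided by length, bars are exact Poisson 95% intervals and the dashed line is the median of all other 5 Mb windows; for H3K4me3 the class III point (44.7) stands above class I (21.6) and class II (10.6).

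Long stretches of the window held no region of any list. There were 5 of more than 100 kb, which together made up 25.1% of the window. The longest was 449.2 kb in the extended class I part, from 28985155 to 29434375, which is 40.8% of that part. The second was 356 kb (355.965 kb) across the boundary of class III and class II, from 32190660 to 32546624. Another 161.9 kb in class II was empty from 32591762 to 32753693, and 141.0 kb from 32987541 to 33128561. The last was in class I, at 147.7 kb from 29747288 to 29894961. The longest empty stretch of the extended class II part was 76.9 kb, at its upper end.

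The border of class III and class II was the longest stretch without H3K4me3 in the window, at 641 kb (640.99 kb) from 32164533 to 32805522. MYC was absent from nearly the same stretch, over 643.8 kb in set C and 642.1 kb in set D, and no MYCN peak lay in it. H3K27ac had 3 regions there and H3K4me1 had 6, of which 1 and 3 were wider than their list medians. The widest were an H3K27ac region of 560 bp from 32169620 to 32170179 and an H3K4me1 region of 565 bp from 32169943 to 32170507, which overlap each other at the lower end of the stretch. Beyond 32190659 the widest region of any list was an H3K4me1 region of 432 bp from 32762226 to 32762657. The lists do not show how well reads could be placed in these stretches, and this was not tested.

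**Figure D3:**
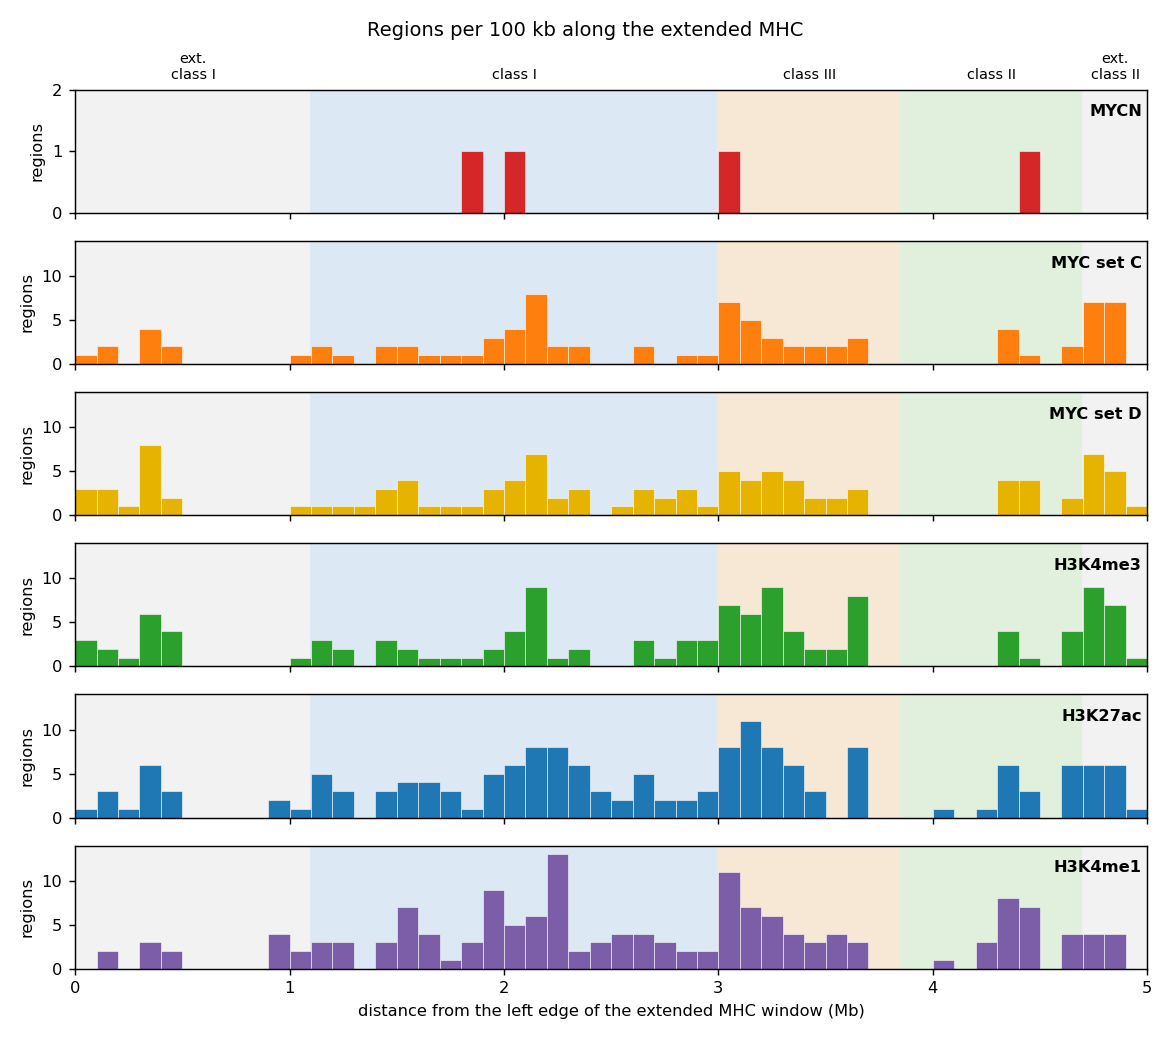
Number of regions per 100 kb along the window, with 1 row per list and distance from the left edge of the window in Mb on the horizontal axis. Shading marks the 5 parts, the MYCN row has its own vertical scale, and blank bins in all rows mark the empty stretches of 449.2 kb in the extended class I part and of 356 kb at the border of class III and class II.

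MYC in the window lay mostly on H3K4me3. Of the MYC regions of set C, 77 of 88 (87.5%, interval 78.7 to 93.6%) overlapped H3K4me3, beside 65.9% of the whole list. Of the MYC peaks of set D, 91 of 108 did (84.3%, 76.0 to 90.6%), beside 56.0%. Both intervals lay above the whole-list share. H3K4me3 itself had 7.18 times the regions of the median window here, which by itself raises the chance of an overlap. This was not corrected for, here or in the shares with H3K4me3 below. By part the set D share was 23 of 25 in class III, 31 of 42 in class I, 8 of 10 in class II, 17 of 18 in the extended class I part and 12 of 13 in the extended class II part. The set C counts in the same order of parts were 21 of 24, 29 of 33, 6 of 7, 10 of 10 and 11 of 14.

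For H3K27ac the window was close to the lists as a whole. It was met by 70 of 88 set C regions (79.5%, 69.6 to 87.4%), beside 78.2%, and by 84 of 108 set D peaks (77.8%, 68.8 to 85.2%), beside 70.7%. H3K4me1 was met by 18 of 88 set C regions (20.5%, 12.6 to 30.4%), beside 26.6%, and by 21 of 108 set D peaks (19.4%, 12.46 to 28.2%), beside 28.2%. MYC at the enhancer-like combination, H3K27ac and H3K4me1 without H3K4me3, was rare. It was found at 4 of 88 set C regions (4.55%, 1.25 to 11.2%), beside 12.8%, and at 8 of 108 set D peaks (7.41%, 3.25 to 14.1%), beside 16.6%. Of those 8, 6 were in class I. None of the 3 marks was met by 3 set C regions (3.41%, 0.709 to 9.64%), beside 8.10%, and by 4 set D peaks (3.70%, 1.02 to 9.21%), beside 10.5%. MYCN was met by 4.55% of set C regions, beside 6.51%, and by 3.70% of set D peaks, beside 4.72%.

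The MYC lists named many of the same places. Of the set C regions 73 of 88 (83.0%, 73.4 to 90.1%) overlapped set D, beside 82.5% of the whole list. Of the set D peaks 79 of 108 (73.1%, 63.8 to 81.2%) overlapped set C, beside 45.1%. The window had 88 set C regions to 108 set D peaks, and the whole lists 9498 to 18018. More set C regions for each set D peak raise this second share by themselves, and this was not corrected for. The lists shared 47.1 kb in the window, 35.1% of the set C bases and 80.3% of the set D bases. In class III, 22 of 25 set D peaks were shared (88%, 68.8 to 97.5%), in class I 25 of 42 (59.5%, 43.3 to 74.4%) and in class II 7 of 10. Shared sites were nearly all at H3K4me3: 76 of the 79 shared set D peaks (96.2%, 89.3 to 99.2%), beside 73.3% of shared peaks genome-wide, and 70 of the 73 shared set C regions (95.9%, 88.5 to 99.1%), beside 74.1%. Among set D peaks absent from set C, 15 of 29 met H3K4me3 (51.7%, 32.5 to 70.6%), beside 41.8%. Among set C regions absent from set D, 7 of 15 did (46.7%, 21.3 to 73.4%), beside 26.8%. Between these lists the set and the caller differ together and cannot be told apart.

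After BRD2, the widest set D peaks shared with set C were in class I from 30293653 to 30294904 (1252 bp), in class III from 31587811 to 31589026 (1216 bp), in class I from 30523858 to 30525024 (1167 bp) and in the extended class II part from 33216228 to 33217391 (1164 bp). All 4 overlapped H3K4me3 and H3K27ac, and only the last overlapped H3K4me1. Of all 79 shared set D peaks in the window, 63 met both H3K4me3 and H3K27ac (79.7%), beside 59.0% of shared peaks genome-wide. The widest set C regions absent from set D differed in the marks they met. The first, in class III from 31679101 to 31680638 (1538 bp), met H3K4me1 alone, and the fourth, in class I from 30693116 to 30694551 (1436 bp), met no mark. The other 3 were in class I, from 29600146 to 29601672 (1527 bp), from 30582650 to 30584151 (1502 bp) and from 29719943 to 29721295 (1353 bp), and each overlapped H3K4me3 and H3K27ac. Of all 15 such regions in the window, 4 met both marks (26.7%), beside 16.4%, and 3 met no mark (20%), beside 30.8%. The regions named here were chosen for width, which raises the chance of an overlap.

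Most H3K4me3 regions held MYC. Of the 122, 98 held MYC in at least 1 set (80.3%, 72.2 to 87.0%), beside 76.7% of the whole list. MYC was in both sets at 76 (62.3%, 53.1 to 70.9%), beside 43.4%, in set D only at 14 (11.5%, beside 28.9%), in set C only at 8 (6.56%, beside 4.43%) and in neither at 24 (19.7%, beside 23.3%). Counting 1 list at a time, set C was at 84 of the 122 (68.9%, 59.8 to 76.9%), beside 47.9%, and set D at 90 (73.8%, 65.0 to 81.3%), beside 72.3%. MYCN was at 4 (3.28%, 0.900 to 8.18%), beside 5.10%. H3K27ac was at 91 (74.6%, 65.9 to 82.0%), beside 66.2%, and H3K4me1 at 18 (14.8%, 8.98 to 22.3%), beside 14.4%. Counted by the centre of the H3K4me3 region, 80 held MYC (65.6%) and 65 held H3K27ac (53.3%). Whole-list shares by this stricter rule are not given, so these values cannot be set against the whole-list shares above.

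H3K4me3 regions without MYC were found in every part. They numbered 11 of 38 in class III, 6 of 41 in class I, 2 of 9 in class II, 2 of 17 in the extended class I part and 3 of 17 in the extended class II part. With H3K27ac, 78 of 91 held MYC (85.7%, 76.8 to 92.2%), beside 88.5% of the whole list. Without it, 20 of 31 did (64.5%, 45.4 to 80.8%), beside 53.7%. Acetylated H3K4me3 regions held MYC at 30 of 32 in class I (93.8%, 79.2 to 99.2%) and 20 of 29 in class III (69.0%, 49.2 to 84.7%), and these intervals overlap. The regions with MYC had a median width of 1479 bp (quartiles 1023.5 and 2064.5) and those without it 894.5 bp (341.25 and 1510.5). Width by itself raises the chance of an overlap, and this was not corrected for. Over the whole list these medians were 1546 and 467 bp.

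**Figure D4:**
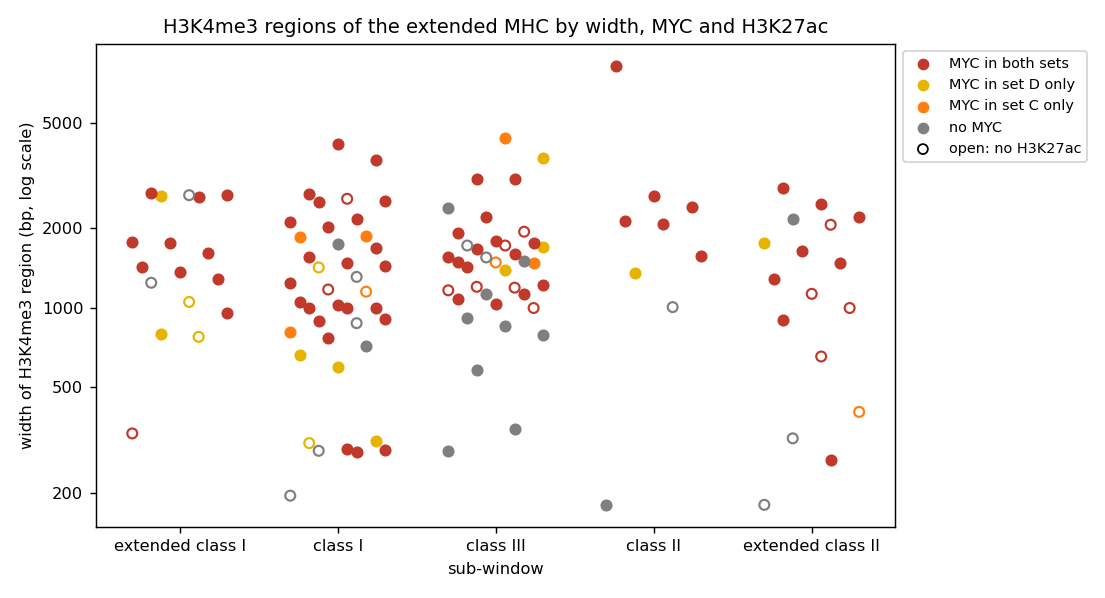
Width of each of the 122 H3K4me3 regions in bp on a log scale, by part of the window, 1 point per region with sideways offsets for legibility. Colour gives the MYC lists that overlap it and open points lack H3K27ac; the BRD2 region (8186 bp) is the top point in class II, and the 11 grey points in class III are its regions without MYC.

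Joined within 1 kb, the H3K4me3 regions made 108 domains with a median width of 1523 bp, against 1571 bp over the 11978 domains of the genome. BRD2 led them and ranked 7 in the genome. The second, in class III from 31702282 to 31708818 (6537 bp), ranked 36 and held 1 MYC region of each set and 1 H3K27ac region. The third, in the extended class I part from 28907637 to 28912377 (4741 bp), was the exception among the 10 widest, since it held no MYC, MYCN, H3K27ac or H3K4me1. Next came 3 in class I, from 31367063 to 31371577 (4515 bp), from 30650057 to 30654467 (4411 bp) and from 30582559 to 30586726 (4168 bp). They were followed by 2 in class III, from 32143127 to 32147089 (3963 bp) and from 31802091 to 31805755 (3665 bp). The last were in class I from 30686901 to 30690515 (3615 bp) and in class III from 32119802 to 32123031 (3230 bp). Of the 10, MYC was in both sets at 8 and in at least 1 set at 9, H3K27ac at 9, H3K4me1 at 1 and MYCN at 1. Over all 108 domains these counts were 71, 89, 85, 18 and 4 in the same order, and the 10 were chosen for width, which raises the chance of an overlap. Shares over the domains of the genome are not given, so these counts do not set the window apart. The 1 domain of the 10 with H3K4me1, from 31802091, held MYC of set D and not of set C.

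H3K27ac in the window met H3K4me3 more often than it met H3K4me1 without H3K4me3. The promoter mark was met by 90 of 164 H3K27ac regions (54.9%, 46.9 to 62.6%), beside 23.2% of the whole list, and MYC in either set also by 90 (54.9%, 46.9 to 62.6%), beside 34.6%. H3K4me1 without H3K4me3 was met by 48 (29.3%, 22.4 to 36.9%), beside 41.3%, and neither methylation mark by 26 (15.9%, 10.6 to 22.4%), beside 35.5%. The density of H3K4me3 and MYC in the window raises the chance of an overlap with them, and this was not corrected for. Class I stood apart from this order within the window. There 30 of 73 H3K27ac regions met H3K4me3 (41.1%, 29.7 to 53.2%) and another 30 met H3K4me1 without it (41.1%), compared with 28 and 11 of 44 in class III (63.6%, 47.8 to 77.6%, and 25%, 13.2 to 40.3%). The intervals of class I and class III overlap for each.

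H3K4me1 regions were divided between acetylated and bare ones. The enhancer-like combination, with H3K27ac and no H3K4me3, was found at 62 of 159 (39.0%, 31.4 to 47.0%), beside 47.0% of the whole list. Neither other mark was at 79 (49.7%, 41.7 to 57.7%), beside 47.8%, and H3K4me3 was at 18 (11.3%, 6.85 to 17.3%), beside 5.18%. Another 23 lay off the H3K4me3 domains but within 2 kb of one (14.5%, 9.40 to 20.9%), beside 6.16%. For H3K27ac that number was 8 (4.88%, 2.13 to 9.39%), beside 1.91%. Of the 62 enhancer-like regions 39 were in class I, 15 in class III and 5 in class II, and their share of the H3K4me1 regions was 50.6% in class I (39.0 to 62.2%) and 21.7% in class II (7.46 to 43.7%).

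**Figure D5:**
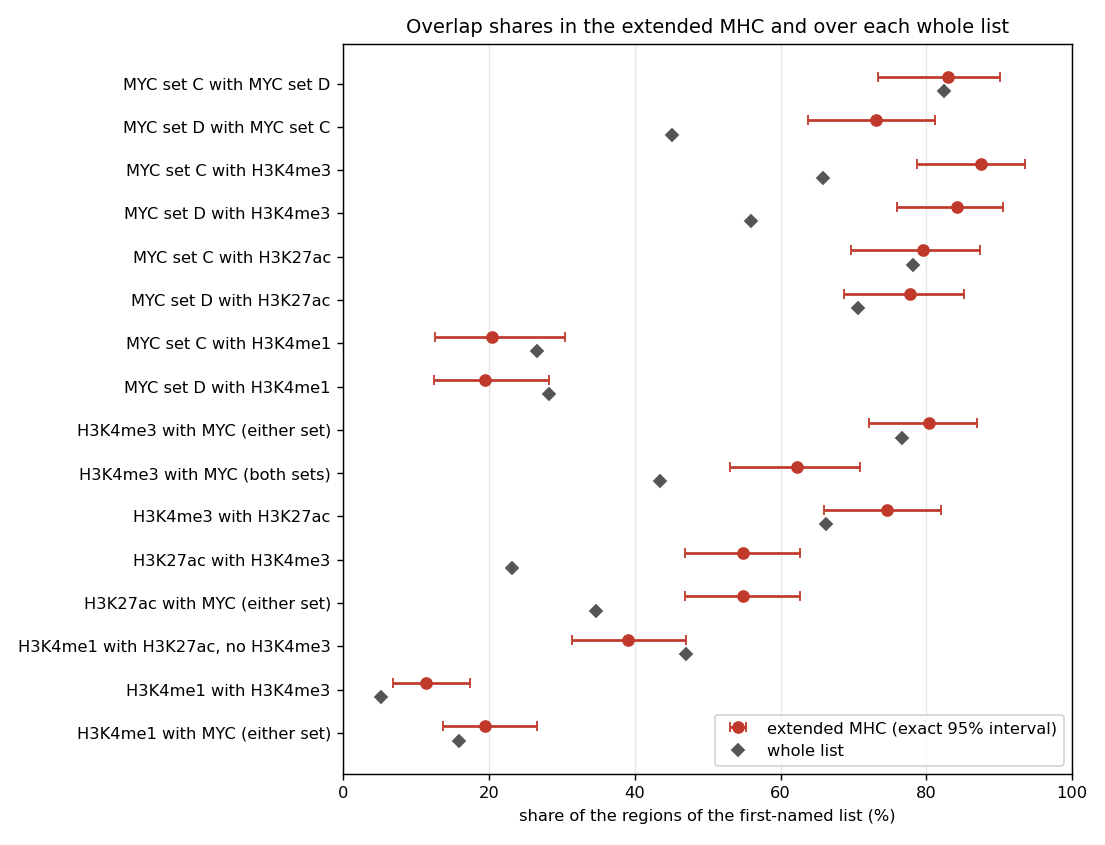
Share of the regions of the first-named list that overlap the second, in percent, for the extended MHC (circles with exact 95% intervals) and for the whole list (diamonds). The circles lie clear of the diamonds for MYC with H3K4me3 (87.5% and 84.3%), for H3K27ac with H3K4me3 (54.9%) and for MYC set D with set C (73.1%), while for MYC set C with set D (83.0%) they are close. No share is corrected for how dense the second list is in the window.

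MYC was uncommon at the enhancer-like regions. It was found in at least 1 set at 13 of the 62 (21.0%, 11.7 to 33.2%), beside 20.4% of such regions genome-wide, and in both sets at 2 (3.23%), beside 4.44%. Set C alone gave 6 (9.68%), beside 8.01%, and set D alone 9 (14.5%), beside 16.9%, so the shares in the window were near those of the whole list. MYCN was at 0 of the 62, beside 0.339%, too rare a class for the window to show a difference. Class I had 9 of the 13. Over all 159 H3K4me1 regions, MYC in either set was at 31 (19.5%, 13.6 to 26.5%), beside 15.9%.

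Joined within a distance of between 12 and 13 kb, as is usual for stitching super-enhancers, the H3K27ac regions made 87 clusters with a median length of 1584 bp, against 814 bp over the 25742 clusters of the genome. The 17 class III clusters had a median of 6899 bp and the 41 class I clusters 1493 bp. Cluster length depends on the joining distance, and joining within 5 kb gave 130 clusters in place of 87. The longest cluster, in class I from 30675157 to 30716890 (41734 bp), joined 7 H3K27ac regions with 5 MYC regions of set C, 6 MYC peaks of set D, 3 H3K4me3 and 7 H3K4me1 regions, and ranked 213 in the genome. Next were 2 in class III, from 31765385 to 31802856 (37472 bp) and from 31670493 to 31706711 (36219 bp). The first of these held 7 H3K4me3 and 2 H3K4me1 regions, and the second 3 and 5. The class II cluster from 32805853 to 32835549 (29697 bp) starts just above the stretch without H3K4me3, and held 3 MYC regions of each set, 3 H3K4me3 and 5 H3K4me1 regions. It was followed by clusters in class I from 30457155 to 30484796 (27642 bp), in class III from 31607366 to 31633766 (26401 bp) and in class I from 30731601 to 30757177 (25577 bp). The last of these was the only 1 of the 10 without H3K4me3. It joined 4 H3K27ac and 6 H3K4me1 regions with 1 MYC region of set C and none of set D. The remaining 3 were in class III from 31542864 to 31566755 (23892 bp) and in class I from 29596054 to 29617982 (21929 bp) and from 30273323 to 30294592 (21270 bp). All 10 held MYC in at least 1 set, 9 held it in both, and none held MYCN. Over all 87 clusters these counts were 62, 51 and 3, and the 10 were chosen for length, which also raises the chance of an overlap. Shares over the clusters of the genome are not given, so these counts do not set the window apart.

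At the edges of the window, the nearest member to the lower limit was a MYC region of set C from 28510063 to 28512294, and the nearest region outside it was one from 28490328 to 28491550. At the upper limit the last member was an H3K4me3 region from 33421314 to 33423071, and the first region outside was H3K4me1 from 33500701 to 33501623. No region of any list crossed a limit of the window.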

How the data were processed

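The authors deposited peaks as intervals on hg19, with MACS2 and SEACR named among the tools, per the submitters' processing notes. A list row gives chromosome, start, end and a name, and no score, and in the set C list the name is the stretch of highest signal. Per the file headers, the MYCN peaks came from cutruntools at q below 0.01, H3K4me3 from MACS2, the set C MYC regions from SEACR (stringent, paired) and the set D MYC peaks from MACS2 without pairing. No header comes with H3K27ac or H3K4me1. An aligner, not given in the sources used here, and tool versions are unknown. The labels name the set D MYC library as its own control.

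Regions on chromosomes 1 to 22 and X were kept, and overlap meant at least 1 bp. Shares have Clopper-Pearson intervals and counts per Mb exact Poisson intervals. The 5 Mb windows were counted by region centre and left out those with no region. The alternatives were the overlap rule, wider regions only, either MYC list alone, moved limits and other joining distances. Regions named were every MYCN peak, the 10 widest H3K4me3 domains, the 10 longest H3K27ac clusters, the 5 widest MYC regions of each kind, the longest empty stretches and all regions at BRD2. The members and lists were chosen with earlier results of these data known. Tested on simulated data, the overlap code recovered 200 of 200 planted overlaps, and it gave the same counts as bedtools 2.31.1 for all 30 ordered pairs of lists in the window. Counting and intervals used scipy 1.17.1 and numpy 2.4.6 under Python 3.11.15, and plots used matplotlib 3.10.9. The cell type was not checked against markers, since regions were not assigned to genes.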

Additional observations from a re-analysis of the deposited data

How the results depend on the processing

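Of 109 alternative values computed, 95 stayed within the limits set for them (the exact interval of a share, or 1.5 times a count), 14 moved beyond them and 0 reversed. Counting by centres gave 59.1% for MYC of set C in set D, 65.6% for H3K4me3 with MYC and 53.3% for H3K4me3 with H3K27ac. Keeping only regions at or above the median width of their list gave 70.4% for MYC of set C in set D and 61.5% for H3K4me3 with H3K27ac. Whole-list shares under these rules are not given, so these values do not compare the window with the genome. Leaving out either MYC list gave 68.9 to 73.8% for H3K4me3 with MYC and 9.68 to 14.5% for enhancer-like regions with MYC. Moving the upper limit of class II by 0.1 Mb gave 14.7 (MYC set C), 17.9 (MYC set D) and 6.67 or 18.9 (H3K4me3) regions per Mb, and moving the lower limit of class III up left it 0 MYCN peaks. Windows from the first base, which do not include this window and in part overlap it, gave rank 6 for H3K4me3 and 33 for H3K27ac. In each of these the set of regions or the rule of counting itself differs, and no other cause was tested. Joining H3K4me3 regions before counting was chosen after seeing the data and changed neither share beyond its interval. The search for E-boxes in peaks was not run, because it needs hg19 sequence. No paired analysis was possible because no result comes from a test between groups, and each target other than MYC has a single list. Depth is unknown, so a region missing from a list may lie below its threshold.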
